A study of Mus musculus with 12 samples.

Results

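The MHC class II genes described here are Cd74, H2-Aa, H2-Ab1, H2-Eb1, H2-DMa, H2-DMb1 and Ciita. They are 7 of 55487 genes in the count tables, all 7 passed the filter on low counts that kept 19581 genes for testing, and they were found by matching Ensembl gene identifiers to these symbols. The 7 genes were chosen from their expression in these same libraries, so their levels and fold changes are given as a description and no test is reported for them. RNA sequencing compared freshly isolated crypts (tissue) with intestine-derived monolayers, in the small intestine (SI) and in the large intestine (LI) of C57BL/6 mice. The 4 groups (tissue and monolayers of each region) held 3 libraries each. The study's purpose in sequencing these samples was to ask how closely cultured epithelium resembles the tissue of the region it came from.

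Per the study's methods, mice of both sexes between 6 and 10 weeks of age were used, tissue libraries came from separate mice and monolayer libraries from pooled culture wells. SI crypts for culture came from the jejunum and were released with EDTA. LI crypts were taken from the same mice and were released with collagenase D, dispase and DNase before EDTA. Region and release method therefore cannot be told apart in SI against LI monolayers. The release of the crypts sequenced as tissue is not described separately. If they were released in the same ways, region and release method cannot be told apart in SI against LI tissue either. Monolayers were grown for 24 h in control medium containing Wnt3a, EGF, Noggin and R-spondin-1 (WENR), after seeding in medium with CHIR-99021, LDN-193189 and Y-27632. The labels name no altered allele in any group. None of the media is described as containing interferon gamma or cells other than those of the crypt preparation.

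MHC class II molecules display peptides from ingested protein to CD4+ T cells. H2-Aa and H2-Ab1 encode the alpha and beta chains of the H2-A molecule, and H2-Eb1 encodes the beta chain of H2-E, whose alpha chain is not made in C57BL/6 mice. Cd74, the invariant chain, is the chaperone that fills the peptide groove during transport, and the heterodimer of H2-DMa and H2-DMb1 exchanges the remaining Cd74 fragment for peptide. Ciita is the coactivator that switches the whole family on, acting on promoter elements called the X and Y boxes that are bound by RFX, CREB and NF-Y. Dendritic cells, B cells and macrophages express the family constitutively, whereas intestinal epithelial cells can be induced to express it by interferon gamma from lymphocytes.

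On GRCm38, H2-Aa lies at chr17:34282744-34287823, H2-Ab1 at chr17:34257689-34269419, H2-Eb1 at chr17:34305867-34316674, H2-DMa at chr17:34119541-34139101 and H2-DMb1 at chr17:34153072-34160230, all within the MHC. Ciita lies at chr16:10480059-10528418. All 7 are annotated as protein-coding. RefSeq promoter sequences (GRCm38.p6, 250 bases before to 50 after each gene start) were matched for 4 of the 7 genes, namely H2-Aa, H2-Eb1, H2-DMa and H2-DMb1. They were searched on both strands for the letters ATTGG (the core of the Y box), the letters GCAAC (a core of the X box) and the letters TGATG (a core of the neighbouring X2 box). Because the levels of the 7 genes moved together, 85 bases around the Y box are shown for 3 of them and for 3 related genes of the same cluster. Each is given 5′ to 3′ on the strand of the gene. The related genes H2-Oa and H2-Ob did not have the order of groups seen for the 7 genes. Their means were higher in SI tissue than in LI tissue. Capitals mark these 3 cores on either strand, and copies of the X2 core may overlap each other.
H2-Aa, chr17:34287847-34287931, minus strand: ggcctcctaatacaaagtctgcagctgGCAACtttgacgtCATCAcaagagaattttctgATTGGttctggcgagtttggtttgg
H2-Eb1, chr17:34305748-34305832, plus strand: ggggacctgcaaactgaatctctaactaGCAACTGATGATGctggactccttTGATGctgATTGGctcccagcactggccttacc
H2-DMb1, chr17:34153070-34153154, plus strand: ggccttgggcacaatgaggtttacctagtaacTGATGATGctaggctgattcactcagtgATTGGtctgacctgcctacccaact
H2-DMb2, chr17:34145099-34145183, plus strand: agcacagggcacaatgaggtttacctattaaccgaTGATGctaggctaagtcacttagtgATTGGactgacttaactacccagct
H2-Oa, chr17:34092276-34092360, plus strand: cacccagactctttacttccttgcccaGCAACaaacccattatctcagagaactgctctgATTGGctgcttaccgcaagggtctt
H2-Ob, chr17:34238788-34238872, plus strand: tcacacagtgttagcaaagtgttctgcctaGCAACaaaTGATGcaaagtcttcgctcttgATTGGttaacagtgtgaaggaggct

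In H2-Aa and H2-Oa, 28 bases separated GCAAC from ATTGG, and the spacing was 27 bases in H2-Eb1 and 25 in H2-Ob. It was 27 bases in H2-Eb2, a related gene whose window is not shown. H2-Eb2 also had a higher mean in SI tissue than in LI tissue. Single motifs were common, since ATTGG was found in 37.4%, GCAAC in 35.2% and TGATG in 39.3% of all 32851 promoters, whereas GCAAC followed by ATTGG after 15 to 35 bases was found in 1.02%. The windows of the gene duplicates H2-DMb1 and H2-DMb2 were identical at 71 of 85 bases and held ATTGG and TGATG but not GCAAC. H2-DMa has a pair of listed starts, of which the first held no ATTGG and the second held ATTGG without GCAAC. These matches describe letters in a window and not binding.

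The 12 libraries held between 59016196 and 76216530 counts, which puts 3 counts, used as the limit of detection, at 0.0391 to 0.0525 CPM, counts scaled to a common library total. These values were scaled by the trimmed mean of M values (TMM). Of the counts from 1 to 10, 75.7% were even, so that a count may be 1 mate of a read pair and sampling error is larger than the counts alone give. Where H2-DMa overlaps Brd2 (360 exonic bases) and Ciita overlaps Dexi (329 exonic bases) on the opposite strand, reads may be shared, because the strand setting of the counting is not given in the sources used here. H2-DMb1 shared 22.7% of its 50-base words with H2-DMb2, and these genes are uncertain to that extent. One library, SI tissue replicate 2, stood apart from the other SI tissue libraries in all 7 genes. For these genes, values with and without it are given for every comparison that uses it. Values of the other gene lists include this library unless stated. Cd74 lies on chromosome 18. The labelled epithelial origin was seen in all groups, since the summed level of 12 epithelial markers was at least 18279 CPM in every library.

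Cd74 was the most abundant of the 7 genes in every group. Its level was 403, 1256 and 496 CPM in SI tissue, 105, 102 and 108 CPM in SI monolayers, 1285, 1621 and 1195 CPM in LI tissue and 4.15, 5.21 and 6.64 CPM in LI monolayers (replicates 1, 2 and 3). SI tissue and LI tissue overlapped only through SI tissue replicate 2, and the monolayer groups were separated from tissue and from each other. Per kilobase of exon, mean Cd74 levels were 428 ± 279, 62.4 ± 1.74, 814 ± 133 and 3.17 ± 0.744 CPM per kb in the same order of groups (SD, n = 3). Among the 19581 tested genes these levels put Cd74 at rank 124 in SI tissue and 51 in LI tissue, and at rank 932 in SI monolayers and 8200 in LI monolayers.

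**Figure D1:**
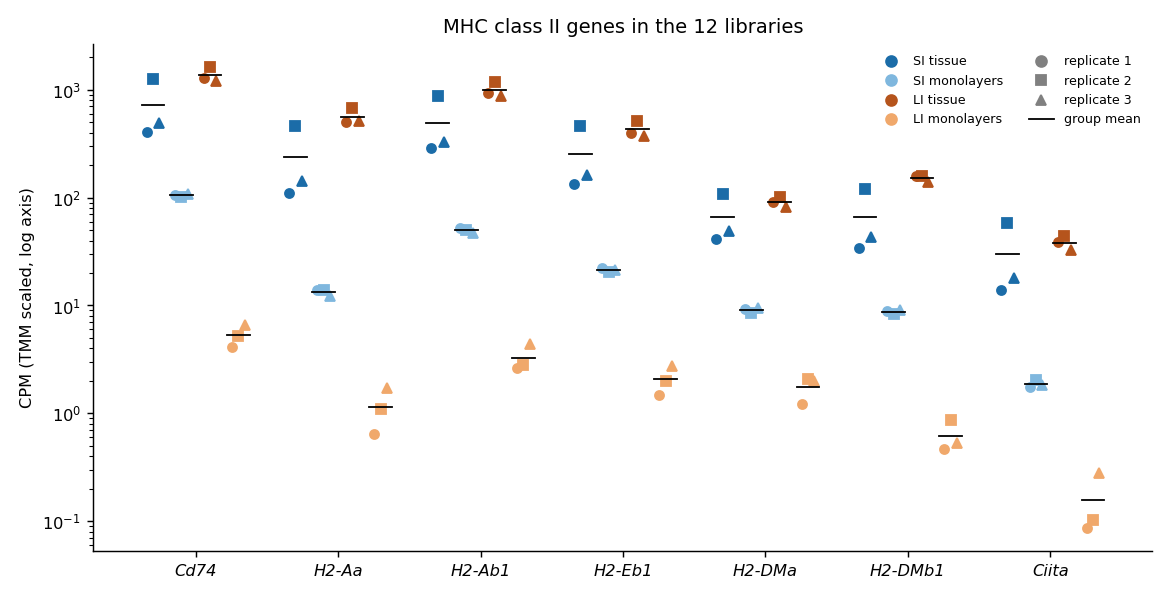
Level of each of the 7 MHC class II genes in every library, in TMM-scaled CPM on a log axis. Colours are the 4 groups, symbols the replicates and black lines the group means. LI monolayers are lowest for every gene, and the square of SI tissue (replicate 2) lies above the other SI tissue libraries, at 1256 CPM against 403 and 496 CPM for Cd74.

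The chains of the presenting molecules followed the same order of groups. H2-Ab1 measured 286, 869 and 327 CPM in SI tissue, between 46.8 and 52.0 CPM in SI monolayers, 925, 1171 and 878 CPM in LI tissue and 2.65, 2.82 and 4.41 CPM in LI monolayers. H2-Aa, its partner chain, measured 109, 460 and 142 CPM, then 13.9, 14.0 and 12.3 CPM, then 502, 673 and 516 CPM, and 0.638, 1.09 and 1.74 CPM. For both chains the 4 groups did not overlap, although SI tissue replicate 2 (869 CPM) came close to the lowest LI tissue library (878 CPM) for H2-Ab1.
H2-Eb1 measured 134, 459 and 161 CPM in SI tissue, 22.5, 20.6 and 21.1 CPM in SI monolayers, 395, 517 and 371 CPM in LI tissue and 1.49, 1.998 and 2.77 CPM in LI monolayers. Its tissue groups overlapped through SI tissue replicate 2. H2-Eb1 RNA was thus measured in mice that make no H2-E alpha chain. The gene of that chain, annotated as the pseudogene H2-Ea-ps, had 2 counts in 1 of the 12 libraries (SI tissue replicate 2) and none in the other 11, under the limit of 3 counts in each.

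The peptide exchange genes were less abundant. H2-DMa measured 41.5, 108 and 49.4 CPM in SI tissue, 9.32, 8.56 and 9.52 CPM in SI monolayers, 91.9, 101 and 81.0 CPM in LI tissue and 1.23, 2.08 and 2.001 CPM in LI monolayers. H2-DMb1 measured 34.1, 120 and 43.0 CPM, then 8.95, 8.31 and 9.03 CPM, then 157, 160 and 140 CPM, and 0.464, 0.871 and 0.530 CPM. The tissue groups overlapped for H2-DMa and not for H2-DMb1.
Ciita, the coactivator, measured 14.0, 57.9 and 18.1 CPM in SI tissue, 1.75, 2.04 and 1.84 CPM in SI monolayers, 38.6, 43.7 and 32.5 CPM in LI tissue and 0.0870, 0.103 and 0.280 CPM in LI monolayers. Its values in LI monolayers rest on 6, 6 and 19 counts, above the limit of 3 counts but with large counting error. SI tissue replicate 2 was the highest of all 12 libraries for Ciita, and for H2-DMa it was above all 3 LI tissue libraries.

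SI monolayers had lower levels of all 7 genes than SI tissue, by 6.86-fold for Cd74 to 17.7-fold for H2-Aa. The log2 fold changes were -2.78 ± 0.42 for Cd74, -4.15 ± 0.58 for H2-Aa, -3.32 ± 0.44 for H2-Ab1 and -3.55 ± 0.48 for H2-Eb1 (± SE, edgeR fit over all 12 libraries). They were -2.86 ± 0.36 for H2-DMa, -2.90 ± 0.46 for H2-DMb1 and -4.00 ± 0.57 for Ciita. The median was -3.32, beside -0.05 over all tested genes, and every SI monolayer library lay below every SI tissue library for 7 of 7 genes, as it did for 34.3% of all tested genes. Without SI tissue replicate 2 the median was -2.63, with values from 4.29-fold lower for Cd74 to 9.36-fold lower for H2-Aa. In bulk RNA, fewer cells that express a gene and less RNA of it per cell cannot be told apart, here or in the other comparisons.

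LI monolayers had lower levels of all 7 genes than LI tissue, by 51.7-fold for H2-DMa to 487-fold for H2-Aa. The log2 fold changes were -8.00 ± 0.54 for Cd74, -8.93 ± 0.75 for H2-Aa, -8.23 ± 0.56 for H2-Ab1 and -7.68 ± 0.61 for H2-Eb1. They were -5.69 ± 0.43 for H2-DMa, -7.96 ± 0.63 for H2-DMb1 and -7.90 ± 0.80 for Ciita. The median was -7.96, beside -0.05 over all tested genes, and the libraries did not overlap for 7 of 7 genes, as for 38.5% of all tested genes. H2-DMa stood apart from the other 6 genes, whose log2 fold changes were all at or below -7.68. The value for Ciita was -8.72 without LI monolayer replicate 3, which had 19 counts against 6 and 6 in the others.

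**Figure D2:**
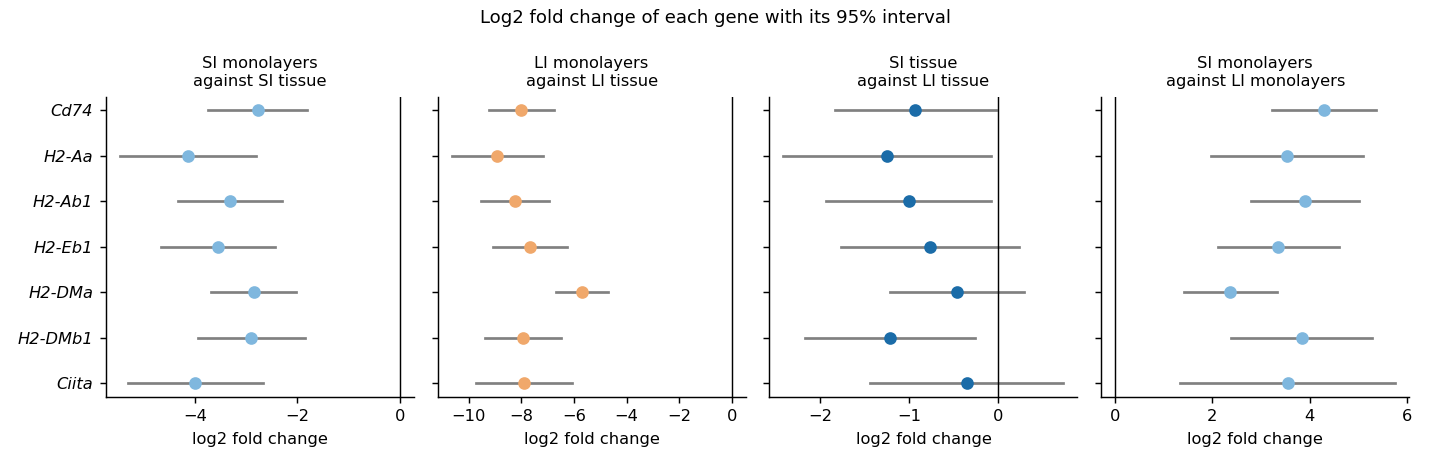
Log2 fold change of each gene (points) with its 95% interval (bars) in 4 comparisons, with the first named group over the second. Each panel has its own log2 axis and the vertical line marks 0. Medians are -3.32, -7.96, -0.93 and 3.55 from left to right, and only in the comparison of the tissues do intervals reach 0.

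In tissue, the 7 genes were lower in SI than in LI, with log2 fold changes from -1.25 ± 0.51 for H2-Aa to -0.35 ± 0.47 for Ciita and a median of -0.93, beside 0.06 over all tested genes. Cd74 measured -0.93 ± 0.40 and H2-Ab1 -1.005 ± 0.40. Every SI tissue library lay below every LI tissue library for 3 genes (H2-Aa, H2-Ab1 and H2-DMb1), and 26.9% of all tested genes were ordered in that way. For Cd74, H2-Eb1, H2-DMa and Ciita the tissue groups overlapped. Without SI tissue replicate 2 the median was -1.60, with values from 2.003-fold lower for H2-DMa to 4.48-fold lower for H2-Aa. That library was the highest of SI tissue for all 7 genes, so leaving it out lowers SI and cannot test the direction. Without SI tissue replicate 1 the median was -0.64, with log2 fold changes from -0.91 for H2-DMb1 to -0.008 for Ciita. The size of this difference thus depended on single libraries. With all libraries, the intervals of H2-Eb1, H2-DMa and Ciita covered both directions.

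In monolayers the order of the regions was the opposite. SI monolayers had higher levels than LI monolayers of all 7 genes, from 5.18-fold for H2-DMa to 19.6-fold for Cd74. The log2 fold changes were 4.30 ± 0.47 for Cd74, 3.53 ± 0.68 for H2-Aa, 3.91 ± 0.48 for H2-Ab1, 3.36 ± 0.54 for H2-Eb1, 2.37 ± 0.42 for H2-DMa, 3.84 ± 0.63 for H2-DMb1 and 3.55 ± 0.96 for Ciita. The median was 3.55, beside 0.02 over all tested genes, and the libraries did not overlap for 7 of 7 genes, as for 32.2% of all tested genes. Without LI monolayer replicate 3, the highest LI monolayer library for 5 of the 7 genes, the median was 4.01.
The difference between the change in SI culture and that in LI culture, on the log2 scale, was 2.83 ± 0.54 for H2-DMa and between 3.90 and 5.22 for the other 6 genes, with a median of 4.78 beside 0.00 over all tested genes. Without SI tissue replicate 2 it was 3.38 ± 0.22 for H2-DMa and between 4.80 and 5.90 for the others, with a median of 5.60. The comparisons share libraries, so that these differences are not independent of the fold changes above.

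The 7 genes were not in the same proportions in all groups. On the per-kilobase scale, H2-Ab1 was 44.9% ± 1.59 of Cd74 in SI tissue and 47.4% ± 0.49 in LI tissue, but 31.0% ± 2.24 in SI monolayers and 40.2% ± 4.29 in LI monolayers (SD, n = 3). H2-Aa was 13.6% ± 2.27 and 18.2% ± 0.915 of Cd74 in SI and LI tissue, and 5.67% ± 0.537 and 9.21% ± 2.38 in SI and LI monolayers. H2-Eb1 was lowest relative to Cd74 in SI monolayers, at 17.7% ± 0.813, and between 27.0% and 33.4% in the other groups. Within the LI it was higher in every monolayer library (31.1 to 36.0%) than in every tissue library (26.5 to 27.6%). The proportions of the presenting chains in the SI monolayer libraries lay below those of every tissue library.
H2-DMa was also higher relative to Cd74 in LI culture, with 3.27% ± 0.23 of Cd74 in tissue and 16.2% ± 2.83 in monolayers, while it was 4.68% ± 0.444 and 4.24% ± 0.133 in SI tissue and SI monolayers. H2-DMb1, its partner, was 8.88% ± 0.55, 8.36% ± 0.196, 11.3% ± 1.23 and 11.9% ± 4.42 of Cd74 in the same order as for Cd74 above (SI tissue, its monolayers, LI tissue, its monolayers). For H2-DMb1 the LI groups differed by less than the spread of replicates, and part of the H2-DMa exons overlaps Brd2. Ciita was at most 0.812% of Cd74 per kilobase in any library. Over the 12 libraries the 21 pairs of these genes had Pearson's r between 0.985 and 0.998 on the log2 CPM scale, a description that the difference between groups dominates.

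**Figure D3:**
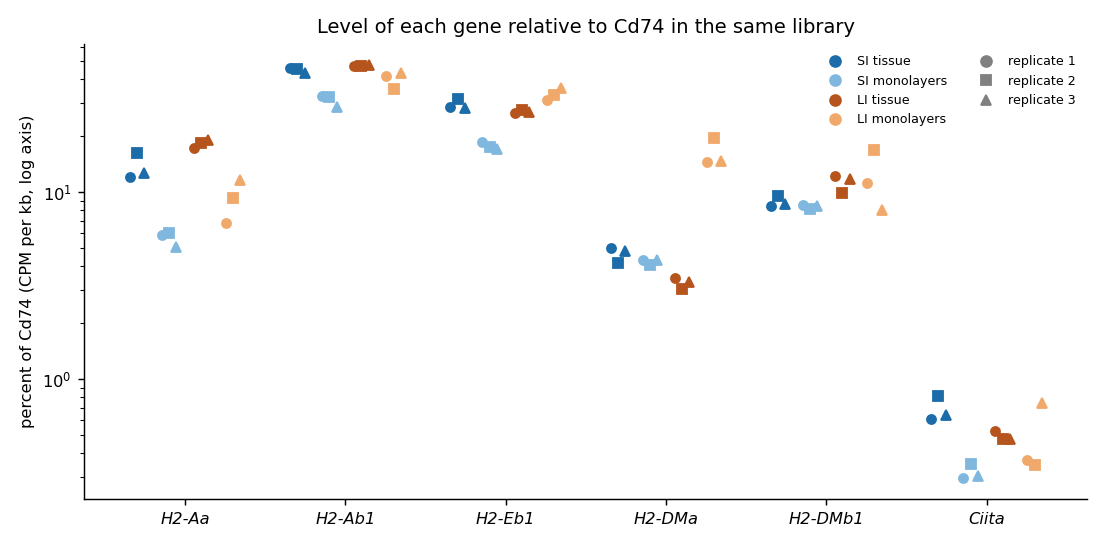
Level of each of the other 6 genes as a percent of Cd74 in the same library, in CPM per kilobase on a log axis. Colours are groups and symbols replicates. H2-Aa, H2-Ab1 and H2-Eb1 are lowest in SI monolayers (5.67%, 31.0% and 17.7% on average), and H2-DMa is highest in LI monolayers (16.2%).

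The library that stood apart, SI tissue replicate 2, had 2.37 times (H2-DMa) to 3.67 times (H2-Aa) the mean CPM of SI tissue replicates 1 and 3, with a median of 3.10 over the 7 genes. Of all genes with a value, 2.55% reached a ratio of 2.37 and 8.14% exceeded 1.5. Of 20 genes of the interferon gamma axis, 11 exceeded 1.5 and the median was 1.60, with the interferon-inducible GTPases Iigp1 at 8.32 and Igtp at 3.39 and the cytokine Ifng itself at 3.06 (from 22 counts against 6 and 8). The median ratio was 1.33 for 15 class I presentation genes, 1.14 for 18 antigen-presenting cell markers, 1.09 for 12 T cell markers, 1.05 for 12 epithelial markers and 1.06 for 20 other genes of the class II pathway. Of the leukocyte markers, 4 of 18 (22.2%) antigen-presenting cell markers and 2 of 12 (16.7%) T cell markers exceeded 1.5. Their ratios ranged from 0.549 (C1qb) to 2.20 (Siglech) and from 0.578 (Trdc) to 3.24 (Cd4). Of 6 costimulation genes 4 exceeded 1.5 and the median was 1.83, with Cd80 at 4.51 (from 15 counts against 0 and 7) and Cd86 at 4.21 (from 32 counts against 0 and 16). Whether the mouse, its handling or the library accounts for this was not tested.

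**Figure D4:**
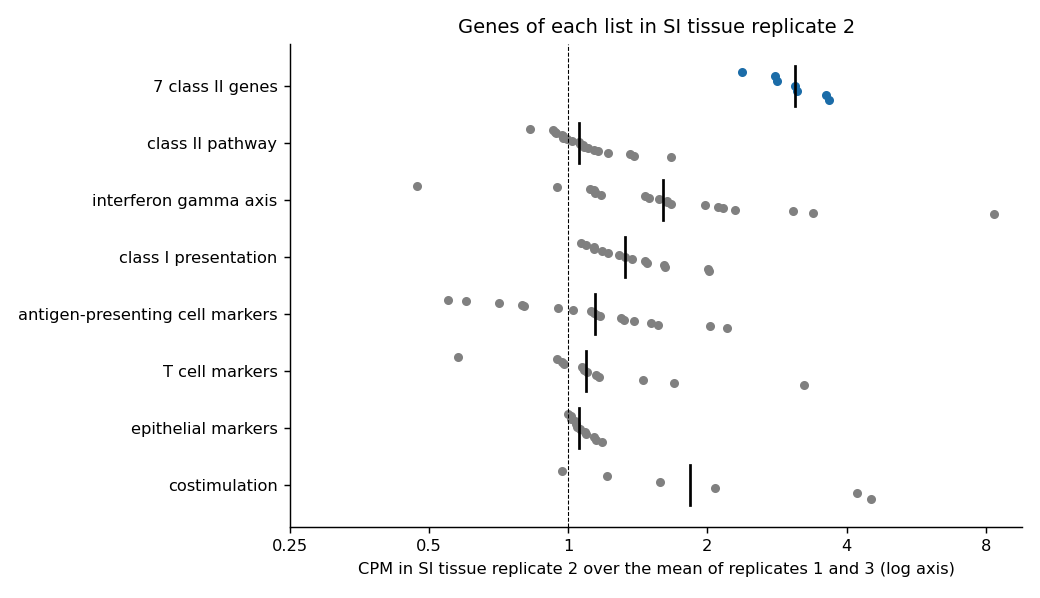
Ratio of CPM in SI tissue replicate 2 to the mean of SI tissue replicates 1 and 3, on a log axis, for the tested genes of 8 lists. Points are genes, black bars are list medians and the dashed line marks a ratio of 1. All 7 class II genes lie between 2.37 and 3.67, and the medians are 1.14 for the antigen-presenting cell markers and 1.83 for costimulation.

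The other genes of the class II pathway were tested with edgeR's quasi-likelihood test, with Benjamini-Hochberg adjustment over 19581 genes. A gene was called where the adjusted p was under 0.05 and the fold change was 1 or more on the log2 scale, in either direction. Of 21 listed genes, 20 passed the filter and H2-Ea-ps did not. In SI monolayers against SI tissue 2 of 20 were called higher and 5 lower, beside 9.71% and 16.4% of all tested genes. In LI monolayers against LI tissue 2 were called higher and 6 lower, beside 14.5% and 23.5%. In SI against LI tissue none of the 20 was called higher and 2 lower (11.6% and 11.1% of all), and in SI against LI monolayers 2 were called higher and 2 lower (12.4% and 8.88%). The list as a whole was thus called at shares near those of all genes, with a median log2 fold change of -0.17 in SI and -0.28 in LI culture.

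Most of the called genes were of 2 kinds, class II genes of low level and proteases. H2-DMb2, the duplicate of H2-DMb1, fell by 3.90 ± 0.34 on the log2 scale in SI culture (adjusted p = 5.8e-08, edgeR) and was called lower in LI culture as well (adjusted p = 6.3e-10, edgeR). It measured 2.62, 3.84 and 1.98 CPM in SI tissue, 0.131, 0.163 and 0.265 CPM in SI monolayers, 3.42, 3.21 and 4.08 CPM in LI tissue and at most 2 counts in each LI monolayer library, under the limit of 3. Summed over libraries, 809 counts in LI tissue stood against 3 in LI monolayers, a ratio of 233 with an exact 95% counting interval of 79.4 to 1132. This interval takes the counts as independent, and would be wider if a count is 1 mate of a read pair.
H2-Oa and H2-Ob, whose product restrains H2-DM, and H2-Eb2, a further beta chain gene, also fell in both cultures, from lower levels. H2-Ob measured 1.31, 1.97 and 1.60 CPM in SI tissue, 0.256, 0.596 and 2.04 CPM in LI tissue, 0 counts in the 3 SI monolayer libraries and 6, 2 and 4 counts in LI monolayers. Against the limit of 3 counts per library, H2-Ob was at least 38.7-fold lower in SI monolayers than in SI tissue, and H2-Oa was at least 4.65-fold lower in LI monolayers than in LI tissue.

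The second kind were proteases of the endosome and lysosome, which had high levels in all groups. Ctss, the cathepsin that cleaves Cd74 in antigen-presenting cells, fell by 1.95 ± 0.07 on the log2 scale in SI culture and fell by 1.95 ± 0.07 in LI culture (adjusted p = 3.0e-12 and 9.0e-13, edgeR), and still measured 29.4 CPM on average in SI monolayers and 72.2 CPM in LI monolayers. Ctsl, a related cathepsin, rose by 1.83 ± 0.08 in SI and by 1.28 ± 0.08 in LI culture (adjusted p = 2.0e-11 and 3.5e-10, edgeR). Both were lower in SI than in LI, in tissue (Ctss -1.29 ± 0.07, Ctsl -1.79 ± 0.08) as in monolayers (Ctss -1.30 ± 0.07, Ctsl -1.24 ± 0.08). In monolayers the regions were thus ordered oppositely for these cathepsins and for the presenting chains. Ctsd rose in SI culture by 1.01 ± 0.06, Ctsh rose in LI culture by 1.004 ± 0.07, and Ifi30, the lysosomal thiol reductase, was higher in SI than in LI monolayers by 1.03 ± 0.07.

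In culture, the factors that bind the X and Y boxes changed by less than the 7 genes. Of Rfx5, Rfxap, Rfxank, Nfya, Nfyb, Nfyc and Creb1, Rfxank was called, falling by 1.35 ± 0.10 on the log2 scale in LI culture (adjusted p = 2.4e-09, edgeR), from a mean of 18.2 CPM in LI tissue to 7.13 CPM in LI monolayers. In SI culture Rfxank measured -0.37 and Rfx5 0.61, and in LI culture Rfx5 measured 0.18, Nfya 0.70 and Creb1 0.78, all under the minimum fold change. Rfx5 differed by 1.52-fold in SI and 1.13-fold in LI culture, and Rfxank by 1.29-fold and 2.55-fold. In the same libraries Ciita differed by 16.0-fold in SI and 239-fold in LI, the latter resting on 6, 6 and 19 counts in LI monolayers. Whether any of these factors accounts for the levels of the 7 genes was not tested.

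Of 20 genes of the interferon gamma axis, 2 were called higher and 12 lower in SI culture and none higher and 14 lower in LI culture, with median log2 fold changes of -1.22 and -1.88. The share of all tested genes called lower was 16.4% and 23.5%. Among those lower in both were the transcription factors Irf1 and Irf8, the cytokine Ifng and the GTPases Gbp3, Gbp6, Gbp7, Igtp and Irgm1. The receptor chain Ifngr1 was called higher in SI culture (1.24 ± 0.05), and Ifng had no count in any monolayer library, against 6 to 37 counts in the 6 tissue libraries. In SI against LI tissue 1 gene was called higher and 8 lower, beside 11.6% and 11.1% of all tested genes. Gbp2 measured 2.34, 4.70 and 2.12 CPM in SI tissue and 79.1, 69.3 and 72.6 CPM in LI tissue. In SI against LI monolayers 3 were called higher (Irf8, Cxcl9 and Cxcl10) and 6 lower (Irf9, Socs1, Gbp2, Gbp3, Gbp6 and Gbp7). The shares of all tested genes were 12.4% higher and 8.88% lower.
Irf8, a transcription factor of interferon responses and of antigen-presenting cells, had the order of the 7 genes in monolayers. It measured 195, 297 and 202 CPM in SI tissue, 54.1, 53.7 and 55.8 CPM in SI monolayers, 215, 203 and 184 CPM in LI tissue and 10.5, 10.2 and 9.42 CPM in LI monolayers. SI monolayers exceeded LI monolayers by 2.44 ± 0.15 on the log2 scale (adjusted p = 1.5e-07, edgeR). The guanylate-binding proteins Gbp2, Gbp3, Gbp6 and Gbp7 had the opposite order, with log2 fold changes between -2.61 and -1.03 in SI against LI monolayers. Genes of the interferon gamma axis were not uniformly higher in the monolayers in which the class II genes were higher. The same guanylate-binding proteins also had lower means in SI than in LI tissue, as for Gbp2 at 3.06 and 73.7 CPM. Whether interferon gamma accounts for the class II levels was not tested.

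Of 15 class I presentation genes, 9 were called lower in SI culture and 11 in LI culture and none higher, with median log2 fold changes of -1.64 and -1.61, beside 16.4% and 23.5% of all tested genes called lower. Nlrc5, the coactivator of class I genes and a relative of Ciita, fell by 3.22 ± 0.44 in SI culture and fell by 2.68 ± 0.40 in LI culture on the log2 scale (adjusted p = 1.5e-04 and 2.0e-04, edgeR). It measured between 0.794 and 1.02 CPM in SI monolayers and 4.81, 2.97 and 1.75 CPM in LI monolayers, and was called lower in SI than in LI monolayers (-1.76 ± 0.45, adjusted p = 8.9e-03, edgeR), the opposite of Ciita. The immunoproteasome genes Psmb8 and Psmb9, which lie in the MHC, were called higher in SI than in LI monolayers (1.04 ± 0.18 and 1.36 ± 0.20). In SI against LI tissue H2-D1 and Nlrc5 were called lower. The class I heavy chain H2-K1 kept high levels in culture, at 1048 to 1081 CPM in SI monolayers and 1185 to 1319 CPM in LI monolayers.
For the difference between the changes in SI and LI culture, 2242 of the 19581 genes were called higher (11.4%) and 1667 lower (8.51%). Of 20 other class II pathway genes, 2 were called higher (H2-DMb2 and Lgmn) and 1 lower (H2-Ob). Of the interferon gamma axis 5 of 20 were called higher and 1 lower, and of the class I genes 2 of 15 were called higher.

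Markers of antigen-presenting cells and T cells moved with some of these differences and not with others. The summed level of 20 antigen-presenting cell markers was 84.1 to 116 CPM in SI tissue, 8.34 to 8.60 CPM in SI monolayers, 36.3 to 44.0 CPM in LI tissue and 8.74 to 10.2 CPM in LI monolayers. That of 12 T cell markers was 453 to 638, 18.5 to 20.7, 30.7 to 44.7 and 1.87 to 4.41 CPM, and that of the 7 class II genes was 1021 to 3330, 205 to 213, 3213 to 4286 and 10.7 to 18.4 CPM. In tissue Ptprc, carried by all leukocytes, made up 58.0 of the 103 CPM that the antigen-presenting cell markers summed to on average in SI and 15.2 of 40.8 CPM in LI. Without it the sums were 41.6 to 47.5 CPM in SI tissue and 22.6 to 30.0 CPM in LI tissue. In SI against LI tissue 8 of 18 tested antigen-presenting cell markers were called higher and 4 lower, the lower ones being the macrophage genes Csf1r, Adgre1, C1qa and C1qb, beside 11.6% and 11.1% of all tested genes.
In monolayers the order of the antigen-presenting cell sum turned on single markers, of which Cd68 rose in both cultures. Without Cd68, left out after its values were seen, the sum was 5.89 to 6.55 CPM in SI monolayers and 4.24 to 4.75 CPM in LI monolayers, the order of the class II genes and of the T cell markers. On average Ptprc made up 2.42 of 6.24 CPM of this sum in SI monolayers and 0.768 of 4.44 CPM in LI monolayers. The order without Cd68 thus rests largely on Ptprc, and the sum without both was not taken. With Cd68 the sum was higher in LI monolayers.
On average SI monolayers retained 11.2% of the tissue sum of the class II genes, 8.21% of that of antigen-presenting cell markers and 3.36% of that of T cell markers. LI monolayers retained 0.397%, 23.2% and 8.03%. Without Cd68 the antigen-presenting cell markers retained 6.09% in SI and 11.2% in LI. Single markers ranged widely, and in LI culture Itgax measured -6.19 ± 0.38, C1qb -4.85 ± 0.46 and Ptprc -4.32 ± 0.23 on the log2 scale. Of 18 tested antigen-presenting cell markers, 14 were called lower and 1 higher in SI culture and 14 lower and 2 higher in LI culture, and 12 of 12 T cell markers were called lower in each. Of all tested genes, 16.4% were called lower and 9.71% higher in SI culture, and 23.5% and 14.5% in LI culture.

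**Figure D5:**
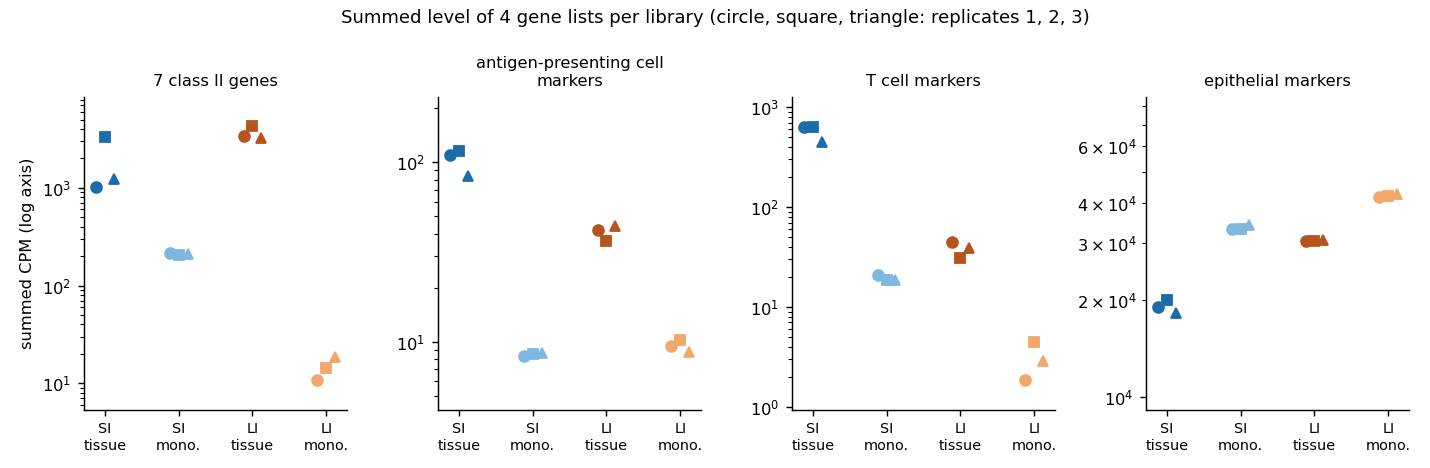
Summed CPM per library, on log axes with a range of their own, of the 7 class II genes and of 3 lists of cell type markers. Colours are groups and symbols replicates. The class II sum is 205 to 213 CPM in SI monolayers and 10.7 to 18.4 CPM in LI monolayers, and the antigen-presenting cell markers, Cd68 included, sum to 8.34 to 8.60 and 8.74 to 10.2 CPM.

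Single markers differed within the antigen-presenting cell list. The dendritic cell marker Itgax was higher in SI than in LI monolayers (3.17 ± 0.46 on the log2 scale, adjusted p = 2.2e-05, edgeR), at 0.437 to 0.502 CPM in SI monolayers and at most 0.102 CPM in LI monolayers, and Ptprc was higher as well (1.67 ± 0.26, adjusted p = 1.6e-04, edgeR). The macrophage marker Cd68 rose in both cultures, by 1.63 ± 0.21 in SI and 2.24 ± 0.21 in LI, while C1qa and C1qb fell in both. Of the 20 markers, at most 4 were at 0 in any SI monolayer library and at most 5 in any LI monolayer library. The part of leukocytes in the class II levels of tissue or monolayers was not tested. Of 6 costimulation genes, 1 was called higher and 1 lower in each culture (beside 9.71% and 16.4% for SI and 14.5% and 23.5% for LI among all tested genes), and Cd80 and Cd86, the ligands by which antigen-presenting cells costimulate T cells, measured at most 0.557 CPM in any library.

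The genes most like the 7 over the 12 libraries were sought among 14683 tested genes with a mean of at least 1 CPM in some group, by Pearson's r with the mean standardized log2 CPM of the 7. The 10 highest were Tmco4 (r = 0.995), Pla2g16 (0.992), Ctsb (0.991), Hibch (0.989), Foxred1, Cox10, Swsap1, Tmem252, Plcd1 and Gm37305 (0.987). These correlations describe mainly how the 4 groups were spaced relative to each other on the log2 scale. The size of the differences was smaller, with Tmco4 at 92.3 CPM in SI tissue and 49.4 CPM in its monolayers on average, and at 105 CPM in LI tissue and 26.6 CPM in its monolayers. Ctsb, a cathepsin of the class II pathway list, measured 676, 510, 711 and 370 CPM in the same order. Tmem252 came nearest in size, at 17.2, 2.48, 25.9 and 0.594 CPM.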

How the data were processed

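Paired-end Illumina HiSeq reads of 12 libraries were aligned by the authors to GRCm38 with STAR 2.7.9a and counted on GENCODE genes with featureCounts 2.0.2. The authors deposited whole-number counts per gene, and normalized signal, in which each library was scaled by its DESeq2 size factor. The strand and mate settings of the counting are not given in the sources used here. All columns were mapped to libraries by their titles.

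Counts were analysed with edgeR 4.0.16 in R 4.3.3 (filterByExpr, TMM, robust glmQLFit over 4 group means, glmQLFTest, Benjamini-Hochberg adjustment over 19581 genes). CPM per kilobase used merged exons of GENCODE for GRCm38. The normalized signal served as an alternative for the most alike genes. The 7 genes and the lists were chosen with earlier results of these data known. Named genes were the 7, list genes called in at least 1 comparison, the 3 most abundant of each list, and the 10 most alike genes; Rfx5, Rfxap, Nfya, Nfyb, Nfyc and Creb1 were named as the listed X and Y box factors, and H2-Ea-ps and Cd86 by their function, after their values were seen. Where separate mice or cultures are not certain, p-values measure the spread between these samples. Some list genes are counted but not reported here by name. The scripts were tested on simulated data. Alternatives were DESeq2 1.42.0, upper quartile scaling, no filter, the 2 groups alone, the replicate number as a block, no minimum fold change and each library left out. Counts halved and rounded down were added after seeing the data. Sums of antigen-presenting cell markers without Cd68 or Ptprc were also added then. The limit of 3 counts and the interval of the H2-DMb2 ratio cover counting error only, while standard errors and the other intervals rest on the spread between libraries.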

Additional observations from a re-analysis of the deposited data

Results flagged for a closer look

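The change in culture differed between SI and LI for 3 other genes of the class II pathway (edgeR interaction, SI minus LI, log2 scale). The values were 3.80 ± 0.73 for H2-DMb2 (adjusted p = 4.4e-04, edgeR), -5.87 ± 2.09 for H2-Ob (adjusted p = 0.039, edgeR) and 1.10 ± 0.17 for Lgmn (adjusted p = 1.2e-04, edgeR), a legumain protease of the lysosome. The H2-DMb2 value rests on at most 2 counts in each LI monolayer library, under the limit of 3, and depends on the prior count. The H2-Ob value rests on SI monolayer libraries without a count, depends on the prior count, and lost its call in 10 of 12 fits that left out 1 library (adjusted p up to 0.109, edgeR) and with counts halved. Lgmn lost its call without SI tissue replicate 1 (0.985) or LI tissue replicate 2 (0.995), in both cases through the minimum fold change.

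Of the interferon gamma axis, the interaction was 2.24 ± 0.20 for Irf8, -2.23 ± 0.27 for Socs1, 3.56 ± 0.41 for Gbp2, 6.66 ± 1.81 for Iigp1, 6.30 ± 0.76 for Cxcl9 and 3.07 ± 0.47 for Cxcl10, with adjusted p (edgeR) between 5.5e-06 and 0.016. For Gbp2, Iigp1 and Cxcl9 the levels were already low in SI tissue, where Iigp1 measured 0.332, 3.45 and 0.498 CPM against 80.4 to 114 CPM in LI tissue. Of the class I genes, Psmb8 (1.53 ± 0.25) and Psmb9 (1.89 ± 0.27) differed between the regions in the same direction (adjusted p = 7.3e-04 and 3.1e-04, edgeR).

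Among the 7 class II genes, H2-Aa, H2-Ab1 and H2-DMb1 were lower in every SI tissue library than in every LI tissue library and higher in every SI monolayer library than in every LI monolayer library. The differences between the changes in culture were 4.78 ± 0.85, 4.91 ± 0.63 and 5.05 ± 0.76 on the log2 scale, and 5.70 ± 0.41, 5.60 ± 0.30 and 5.82 ± 0.22 without SI tissue replicate 2. These differences were not tested, since the genes were chosen from these libraries.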

How the results depend on the processing

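The log2 fold changes of the 7 genes kept their direction in all 84 alternative values of each of the 4 comparisons, and 1 value each in LI culture and in SI against LI monolayers, that of Ciita without LI monolayer replicate 3 (-8.72 and 4.33), moved by more than the spread between replicates. With each library left out, the median ranged from -3.59 to -2.63 in SI culture, from -8.27 to -7.85 in LI culture, from -1.60 to -0.64 in SI against LI tissue and from 3.26 to 4.01 in SI against LI monolayers. The ends of the tissue range are the fits without SI tissue replicate 2 and without SI tissue replicate 1. The number of other class II pathway genes called was 6 to 7, 7 to 8, 2 to 3 and in each case 4 in these fits, and 1 to 4 for the interaction (3 with all libraries), which fell to 1 without SI tissue replicate 1 or LI tissue replicate 2. With no minimum fold change, 18 genes passed in SI culture (9 higher, 9 lower), 18 in LI culture, 12 in SI against LI tissue and 11 in SI against LI monolayers, against 7, 8, 2 and 4. Upper quartile scaling moved the median of all genes in LI culture from -0.05 to -0.17.

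With a replicate block, the medians of the 7 genes were -3.19, -7.99, -1.03 and 3.57, and 7, 8, 2 and 5 other pathway genes were called, with 3 in the interaction. Over all tested genes, the correlation of same-numbered deviations from the group means lay between -0.05 and 0.06. These values cannot show whether same-numbered libraries share a mouse, which the labels do not state. For each of the 7 genes, replicate 2 was the highest tissue library in SI and in LI. The block changed no call count by over 1.5 times. Counts halved and rounded down, chosen after seeing the data, gave medians of -3.33, -7.98, -0.93 and 3.58 and called 7, 6, 2 and 4 other pathway genes, with 2 in the interaction. Of the 10 most alike genes, 9 were shared when the deposited normalized signal was used and 2 with Spearman's rho. Without Cd68 the summed antigen-presenting cell markers were 1.41 times as high in SI as in LI monolayers, against 0.897 with the whole list and 0.697 without Ptprc. Depth limits Ciita, H2-DMb2, H2-Oa, H2-Ob and H2-Eb2 in monolayers, where libraries held few or no counts.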
